A study of Saccharomyces cerevisiae with 7 samples.

Results

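Chaperones and heat shock proteins were examined as a set of 46 yeast genes on arrays that set arp6Δ and swr1Δ strains of Saccharomyces cerevisiae against wild type. The set was chosen by gene name: small heat shock proteins, the Hsp104, Hsp90, Hsp70 and Hsp60 families, their co-chaperones and the cytosolic chaperonin. The table of array values named 42 of them, all tested, among 5344 named genes and 5879 features in all (named genes and unnamed probes). SSA1, SSB1, SSQ1 and CPR1 carry no name in the probe annotation used and were not analysed here. By general knowledge of their regulation the measured members fell into 11 stress-inducible genes, 15 that are expressed in growing cells and raised further by heat, and 16 constitutive genes.

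Cells carrying an arp6 deletion (4 arrays) or a swr1 deletion (3 arrays) were compared with wild-type cells, all in the W303 background and all in YPD medium at 25 °C at an optical density of 1, and the labels name no stress treatment. Arp6, an actin-related protein, and Swr1, an ATPase, are subunits of SWR-C, the remodeller that puts the histone variant Htz1 into nucleosomes. Each value is a log2 ratio of mutant over wild type, so a negative value means a lower level in the mutant and −1 a 2-fold lower one, and wild type is present only as the other dye of each array. The study singled out HSP26, HSP30, SSA4 and HSP104 on these same arrays, so that their direction here is no independent evidence. A constant difference between the dyes cannot be told apart from an effect of the deletion. The study's methods describe independent cultures, while the labels tie no array to a culture, and the p-values measure the spread between arrays. RNA came from whole cultures, so less RNA per cell and fewer cells with the RNA cannot be told apart.

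Chaperones bind unfolded or newly made proteins and help them to fold. Hsp70 proteins work with J proteins, which deliver substrates and stimulate ATP hydrolysis, and with exchange factors, which release ADP. Hsp90 takes later folding steps on selected clients such as kinases, with a rotating cast of co-chaperones, and Hsp104 pulls proteins out of aggregates. In yeast the heat shock factor Hsf1 drives many of these genes in growing cells and more strongly upon heat, whereas the stress factors Msn2 and Msn4 add induction of the stress-inducible ones when glucose runs short, growth slows or other stresses set in.

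The arrays were not alike. On the arp6Δ arrays 40.2%, 20.2%, 18.4% and 15.8% of values lay beyond 2-fold, against 1.43%, 3.12% and 5.50% on the swr1Δ arrays. Across all features arp6Δ replicates 1 and 2 correlated at r = 0.67 and replicates 3 and 4 at r = 0.85, while r across these pairs was 0.26 to 0.37. ARP6 averaged −1.09 ± 0.31 (SD, n = 4) in arp6Δ and 0.10 ± 0.17 (SD, n = 3) in swr1Δ, and SWR1 averaged 1.15 ± 0.37 in arp6Δ and −0.82 ± 0.34 in swr1Δ, so each mutant's own gene was low on each of its arrays. On arp6Δ replicates 1 and 2, values in 7 stretches of neighbouring genes (647 genes) stood 1 or 2 rows away from the gene they match on replicates 3 and 4. SSA4, MDJ1, SNL1, CCT2 and CCT8, 5 members, lie in such stretches. Values were kept as deposited, and values moved back to their genes are given beside them, except for CCT8, which has none after the move.

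In arp6Δ the stress-inducible chaperone genes were low as a class, whereas most others stayed near wild type. Tested on the 4 arp6Δ arrays (limma, Benjamini-Hochberg over all features), 7 of 42 members were lower and 1 was higher, 16.7% and 2.38% of the set, while over all features 3.27% were lower and 2.09% higher. All 7 lower members were stress-inducible genes: HSP26, HSP30, HSP104, SSE2, HSP42, SSA4 and HSP82. The higher member was SSB2, a constitutive gene for a ribosome-bound Hsp70. Without replicate 1 the 3 genes HSP26, HSP30 and HSP104 passed, and without replicate 2, 3 or 4 in turn 0 of the members passed (15, 17 and 12 at an unadjusted p under 0.05). Many features reach that unadjusted limit: with all 4 arrays it held for 17 of 42 members and 1730 of 5879 features (limma). This unadjusted count over all features was not taken with an array left out. Adjusted calls over all features were 70 of 5872, 0 of 5872, 5 of 5718 and 3 of 5718 without replicates 1 to 4 in turn. As deposited, each of the 11 stress-inducible genes read below 0 on every arp6Δ array that measured it, which 20.7% of all features did. This held for 3 of 15 growth-expressed and heat-raised genes and 1 of 16 constitutive genes.

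The median over the stress-inducible genes was −2.67, −1.84, −2.02 and −1.73 on arp6Δ replicates 1 to 4, against −0.48, 0.0047 and 0.25 on swr1Δ replicates 1 to 3, so the ranges of the mutants did not overlap. This gave a mean of −2.07 ± 0.42 (SD, n = 4) in arp6Δ and −0.07 ± 0.37 (n = 3) in swr1Δ. The growth-expressed and heat-raised genes had a median of −0.27 ± 0.21 in arp6Δ and −0.12 ± 0.05 in swr1Δ. The constitutive genes stood at −0.03 ± 0.09 in arp6Δ and −0.04 ± 0.09 in swr1Δ. The median of all features lay between −0.0072 and 0.0045 on the 7 arrays.

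**Figure D1:**
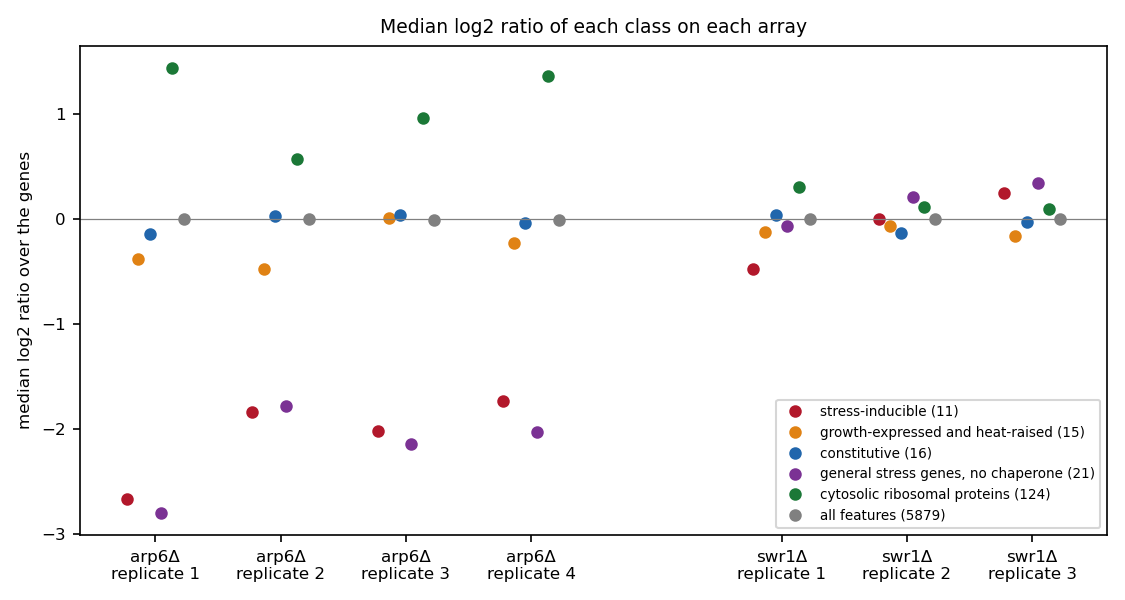
Median log2 ratio of mutant over wild type (vertical axis) over the genes of each class, 1 point per class and array, with arp6Δ replicates 1 to 4 on the left and swr1Δ replicates 1 to 3 on the right; gene numbers are in the legend. The stress-inducible chaperones (−1.73 to −2.67) lie with the other general stress genes (−1.78 to −2.80) on the arp6Δ arrays, whereas the constitutive class stays between −0.14 and 0.04 there.

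Genes outside the set moved on the same arrays. Of 21 general stress genes that encode no chaperone, such as the catalase gene CTT1 and the trehalose synthesis gene TPS1, 18 were lower in arp6Δ and 0 were higher. The lower ones were 85.7%, against 3.27% of all features, and array medians lay between −2.80 and −1.78. Among the 21, CTT1, DDR2, PGM2, SOL4, GAD1, MSC1, GND2, TFS1, ALD3 and GPD1 are in the study's list of genes most lowered in arp6Δ. That list came from these same arrays, so their count and medians are no independent evidence. Of 124 cytosolic ribosomal protein genes 31 were higher in arp6Δ (25%, against 2.09% of all features) and 0 were lower, with array medians between 0.57 and 1.44. Displaced stretches hold 16 of these genes, with medians of −0.14 and 0.06 on replicates 1 and 2 and 1.495 and 1.53 on replicates 3 and 4. They also hold the stress genes NTH1, HXK1 and SPI1. The study named ribosomal protein genes among those most raised on these arrays as well. With 1 array left out in turn, replicates 1 to 4, the stress genes called lower were 9, 0, 2 and 1, and the ribosomal protein genes called higher 6, 0, 0 and 0 (limma; 17 to 20 and 74 to 94 at an unadjusted p under 0.05). Over all features 60, 0, 5 and 3 were called lower in these fits and 10, 0, 0 and 0 higher. In swr1Δ the array medians were −0.06 to 0.35 for the stress genes and 0.10 to 0.31 for the ribosomal protein genes, with 3 stress genes higher (14.3%), 24 ribosomal protein genes higher (19.4%) and 3 lower (2.42%), against 11.2% of all features higher and 10.9% lower. Without replicate 1, 2 or 3 of swr1Δ the stress genes called higher were 8, 0 and 0, and the ribosomal protein genes 42, 3 and 7. Over all features 1575 of 5819, 124 of 5802 and 221 of 5802 were called higher in these fits. The part of these changes in the values of the chaperone genes was not tested.

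HSP26 (YBR072W), which encodes a small heat shock protein that binds unfolding proteins before they clump, had the lowest arp6Δ mean of the set. It read −3.30, −3.03, −5.17 and −5.34 in arp6Δ, against −0.69, 0.15 and 0.47 in swr1Δ. All arp6Δ values lay far below all swr1Δ values. The arp6Δ mean of −4.21 ± 1.22 (SD, n = 4) is 18.5-fold below wild type (limma, adjusted p = 0.0207) and was number 6 from the lowest among all features. The mean in swr1Δ was −0.02 ± 0.60 (n = 3, adjusted p = 0.944), and 0.31 without swr1Δ replicate 1 (adjusted p = 0.0371). In that fit without replicate 1, 3137 of 5819 features had an adjusted p under 0.05. HSP42 (YDR171W), the other cytosolic small heat shock protein gene, read −1.86, −0.53, −1.88 and −1.80 in arp6Δ, against −0.0036, 0.0047 and 0.31 in swr1Δ. Replicate 2 stood apart, but the groups did not overlap. HSP42 averaged −1.52 ± 0.66 in arp6Δ (adjusted p = 0.0418) and 0.10 ± 0.18 in swr1Δ.

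The disaggregase genes read below 0 on every array that measured them, and lower in arp6Δ than in swr1Δ. HSP104 (YLL026W), which encodes the cytosolic disaggregase needed for survival of severe heat, read −2.28, −2.14, −2.73 and −2.46 in arp6Δ, against −0.48, −0.37 and −0.29 in swr1Δ. The arp6Δ replicates lay close together, far below those of swr1Δ. Its mean was −2.40 ± 0.26 in arp6Δ (5.29-fold lower, adjusted p = 0.0142) and −0.38 ± 0.09 in swr1Δ (1.30-fold lower, adjusted p = 0.0505), so the swr1Δ value just missed the threshold. HSP78 (YDR258C), the mitochondrial counterpart, was measured on arp6Δ replicates 3 and 4 only, at −2.18 and −1.73, against −0.59, −0.46 and −0.65 in swr1Δ. Its arp6Δ mean of −1.96 ± 0.32 (n = 2) missed the threshold (adjusted p = 0.0528), whereas the swr1Δ mean of −0.57 ± 0.10 passed (adjusted p = 0.0227). The arp6Δ mean passed with displaced values of other genes moved back (0.0464) and after scaling to equal spread (0.0221). The move left the values of HSP78 unchanged, while calls over all features rose from 315 to 422. It also passed in a fit of replicates 3 and 4 alone (6.56e-06), but that fit of 2 similar arrays called 2547 of 5861 features.

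HSP30 (YCR021C) encodes a plasma membrane protein that restrains the proton pump Pma1 under stress. It read −3.90, −2.77, −3.63 and −2.56 in arp6Δ, against −0.18, 0.02 and 0.51 in swr1Δ. The groups were widely apart, with a mean of −3.22 ± 0.65 in arp6Δ (9.29-fold lower, adjusted p = 0.0142) and 0.11 ± 0.36 in swr1Δ. HSP31 (YDR533C) and HSP32 (YPL280W) encode proteins of the DJ-1 family. HSP31 read −1.41, −0.29, −2.93 and −2.45 in arp6Δ, against −0.28, 0.11 and 0.25 in swr1Δ. HSP32 read −3.83, −1.54, −1.07 and −0.79 in arp6Δ, against −0.63, 0.47 and −0.70 in swr1Δ. Both spread too widely in arp6Δ to pass (adjusted p = 0.0648 for HSP31 and 0.0821 for HSP32), although no arp6Δ value reached the swr1Δ values. HSP31 lies in a short run of displaced values (17 genes) that was not moved. HSP32 has near-identical copies, HSP33 and SNO4, whose spots can share signal with it, and these averaged −2.17 ± 1.77 and −2.10 ± 1.38 in arp6Δ (adjusted p = 0.0867 and 0.0613).

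**Figure D2:**
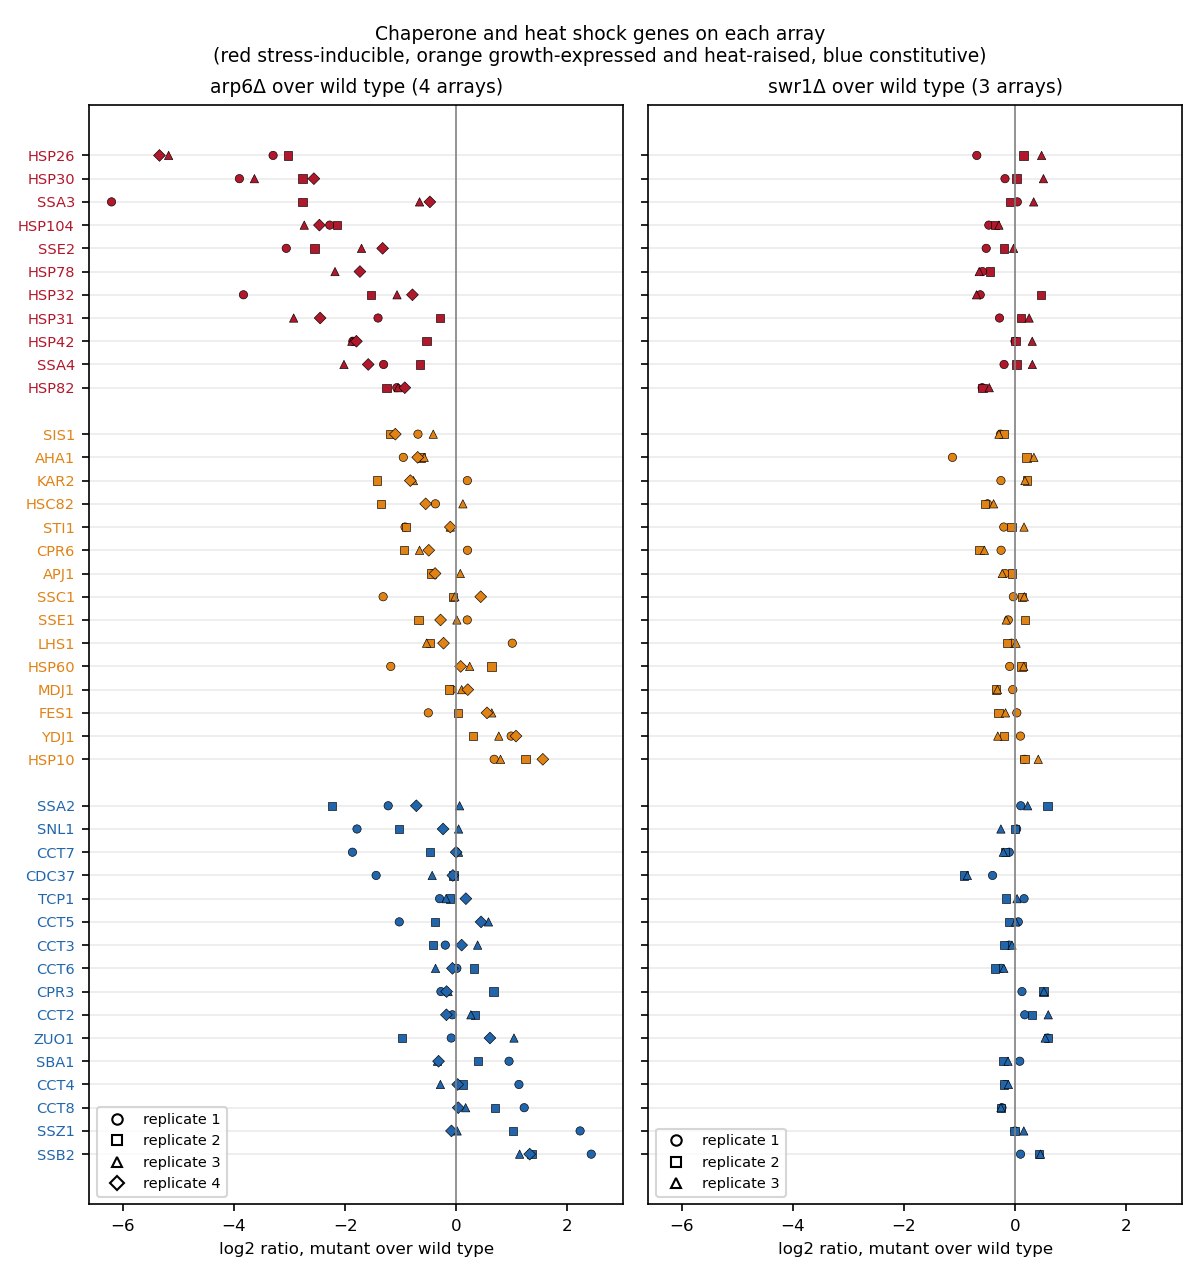
Log2 ratio of mutant over wild type (horizontal axis) for each of the 42 measured members, sorted within its class by the arp6Δ mean, on the 4 arp6Δ arrays (left panel) and the 3 swr1Δ arrays (right panel); marker shapes stand for replicates and colours for classes. The 11 stress-inducible genes lie below 0, as deposited, on all arp6Δ arrays that measured them, while the swr1Δ points of every class stay between −1.13 and 0.59.

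Among cytosolic Hsp70 genes, the stress-inducible SSA4 and SSA3 and the constitutive SSA2 were measured. SSA4 (YER103W) read −1.31, −0.66, −2.02 and −1.58 in arp6Δ, against −0.20, 0.02 and 0.31 in swr1Δ. The mutants did not overlap, and the mean of −1.39 ± 0.57 in arp6Δ passed the test (2.63-fold lower, adjusted p = 0.0418), with 0.04 ± 0.26 in swr1Δ (adjusted p = 0.824). Its values on replicates 1 and 2 are among those displaced: moved back they are −3.57 and −4.04, which puts the mean at −2.80 (adjusted p = 0.0288), and without them replicates 3 and 4 give −1.80 (adjusted p = 0.0507). The move was chosen by the match to replicates 3 and 4, so the p-value after it is no independent evidence. SSA3 (YBL075C), an Hsp70 gene that is nearly silent in growing cells, read −6.20, −2.77, −0.66 and −0.47 in arp6Δ, against 0.04, −0.09 and 0.33 in swr1Δ. All arp6Δ values were below 0, but they fell into 2 low and 2 moderate values along the pairs of similar arrays, and the mean of −2.53 ± 2.66 did not pass (adjusted p = 0.135).

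SSA2 (YLL024C), the Hsp70 gene that is highly expressed in growing cells, did not follow the same pattern on each array. It read −1.23, −2.24, 0.06 and −0.72 in arp6Δ, against 0.10, 0.58 and 0.22 in swr1Δ. The mean of −1.03 ± 0.96 in arp6Δ did not pass (adjusted p = 0.136), nor did the 0.30 ± 0.25 in swr1Δ (adjusted p = 0.131). SSA4 minus SSA2 was −0.08, 1.58, −2.08 and −0.87 on the arp6Δ arrays, and −0.30, −0.56 and 0.08 on the swr1Δ arrays, so as deposited SSA4 was not the lower one on every array of either mutant. With the displaced SSA4 values moved back the difference was −2.34, −1.80, −2.08 and −0.87, and SSA4 was the lower one on all 4 arp6Δ arrays (mean −1.77 ± 0.64). SSA1, a close relative of SSA2 whose RNA may bind the same spot, was not analysed here.

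Of the Hsp110 pair, exchange factors for Hsp70, only SSE2 passed the test in arp6Δ. SSE2 (YBR169C), the stress-inducible copy, read −3.06, −2.55, −1.70 and −1.32 in arp6Δ, against −0.52, −0.20 and −0.03 in swr1Δ. SSE1 (YPL106C), the copy that serves growing cells, read 0.20, −0.68, 0.01 and −0.28 in arp6Δ, against −0.13, 0.17 and −0.16 in swr1Δ. SSE2 was thus below SSE1 on all 4 arp6Δ arrays and on 2 of 3 swr1Δ arrays, with a mean difference of −1.97 ± 0.93 in arp6Δ and −0.21 ± 0.30 in swr1Δ on the log2 scale. The mean of SSE2 was −2.16 ± 0.79 in arp6Δ (4.47-fold lower, adjusted p = 0.0320) and −0.25 ± 0.25 in swr1Δ (adjusted p = 0.194). SSE1 averaged −0.19 ± 0.38 in arp6Δ (adjusted p = 0.610) and −0.04 ± 0.18 in swr1Δ, and passed in neither mutant.

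**Figure D3:**
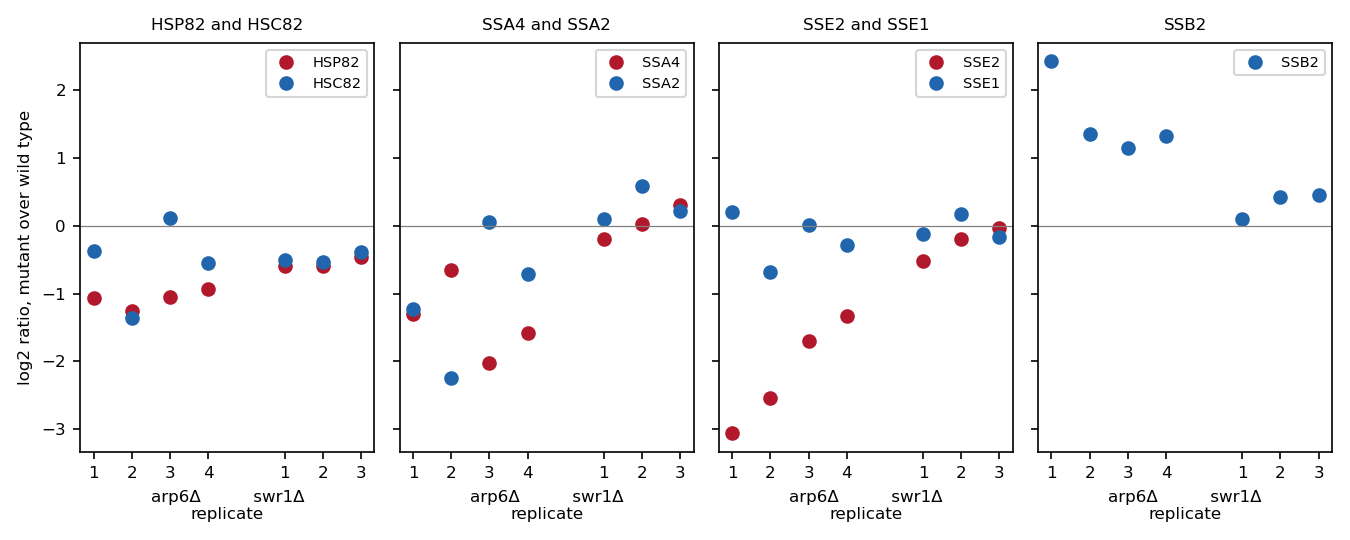
Log2 ratio of mutant over wild type (vertical axis) on each array for paralogue pairs, with arp6Δ replicates 1 to 4 on the left of each panel and swr1Δ replicates 1 to 3 on the right; the stress-inducible copy is red and the copy of growing cells blue. SSE2 lies below SSE1 on all arp6Δ arrays, HSP82 and HSC82 nearly coincide in swr1Δ, and SSB2, whose paralogue was not analysed here, is above 0 on all 7 arrays.

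Of the Hsp90 genes, HSP82 was lower in both mutants and HSC82 in swr1Δ. HSP82 (YPL240C), the heat-inducible copy, read −1.07, −1.26, −1.05 and −0.93 in arp6Δ, against −0.60, −0.59 and −0.47 in swr1Δ. HSC82 (YMR186W), the copy with high expression in growing cells, read −0.38, −1.35, 0.12 and −0.55 in arp6Δ, against −0.50, −0.54 and −0.39 in swr1Δ. HSP82 was tightly replicated in both, while HSC82 was so only in swr1Δ. HSP82 averaged −1.08 ± 0.14 in arp6Δ (2.11-fold lower, adjusted p = 0.0378) and −0.55 ± 0.07 in swr1Δ (1.46-fold lower, adjusted p = 0.0232). HSC82 averaged −0.54 ± 0.61 in arp6Δ (adjusted p = 0.247) and −0.48 ± 0.08 in swr1Δ (1.39-fold lower, adjusted p = 0.0304). HSP82 minus HSC82 was −0.53 ± 0.53 on the arp6Δ arrays and −0.07 ± 0.02 on the swr1Δ arrays. The coding sequences of these paralogues are nearly identical, so that their spots can share signal.

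Co-chaperones of Hsp90 were mixed. CDC37 (YDR168W), which brings kinases to Hsp90, read −1.44, −0.05, −0.43 and −0.06 in arp6Δ, against −0.41, −0.92 and −0.86 in swr1Δ, and was the lowest member in swr1Δ at −0.73 ± 0.28 (1.66-fold lower, adjusted p = 0.0227). CPR6 (YLR216C), a prolyl isomerase bound to Hsp90, read 0.20, −0.94, −0.66 and −0.50 in arp6Δ, against −0.25, −0.64 and −0.55 in swr1Δ, where the mean of −0.48 ± 0.20 passed (adjusted p = 0.0387). In arp6Δ neither passed. AHA1, which stimulates the ATPase of Hsp90, averaged −0.72 ± 0.17 in arp6Δ and −0.20 ± 0.81 in swr1Δ. STI1, which links Hsp70 to Hsp90, averaged −0.51 ± 0.46 in arp6Δ and −0.04 ± 0.18 in swr1Δ, and SBA1, the yeast p23, 0.17 ± 0.62 in arp6Δ and −0.09 ± 0.15 in swr1Δ. These 3 genes passed in neither mutant.

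In swr1Δ the changes of the set were small and few. On its 3 arrays 5 of 42 members were lower (HSP78, HSP82, HSC82, CDC37 and CPR6) and 1 was higher, 11.9% and 2.38% of the set, whereas 10.9% of all features were lower and 11.2% higher. The share of lower members was thus near that of all features. These counts turned on single arrays: 15 members passed without replicate 1, 0 without replicate 2 (limma; 5 at an unadjusted p under 0.05) and 1 without replicate 3. So did those over all features: 3137 of 5819 passed without replicate 1, 279 of 5802 without replicate 2 and 397 of 5802 without replicate 3. With all 3 arrays, 11 of 42 members and 2448 of 5879 features had an unadjusted p under 0.05 (limma). Sizes of the called members ran from −0.73 to 0.57 in swr1Δ, while those called in arp6Δ ran from −4.21 to 1.56. Of the 5, HSP82 and HSC82 are the Hsp90 genes, whose spots can share signal, and CDC37 and CPR6 encode partners of Hsp90. The other Hsp90 co-chaperones of the set, AHA1, STI1 and SBA1, were not called. Only 2 of the 11 stress-inducible genes passed, HSP78 and HSP82. Of the 7 stress-inducible genes lower in arp6Δ, HSP82 alone was called in swr1Δ.

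The single higher call of each mutant was a different gene, SSB2 in arp6Δ and ZUO1 in swr1Δ, both for chaperones at the ribosome exit. Each is 2.38% of the set, against 2.09% of all features higher in arp6Δ and 11.2% in swr1Δ. SSB2 (YNL209W), an Hsp70 that binds nascent chains, read 2.43, 1.35, 1.14 and 1.32 in arp6Δ, against 0.10, 0.42 and 0.45 in swr1Δ. The groups did not overlap, and replicate 1 was the highest. SSB2 averaged 1.56 ± 0.59 in arp6Δ (2.95-fold higher, adjusted p = 0.0378) and 0.32 ± 0.20 in swr1Δ. ZUO1 (YGR285C), the J protein of the ribosome-associated complex, read −0.09, −0.98, 1.04 and 0.61 in arp6Δ, against 0.58, 0.59 and 0.54 in swr1Δ. It was the single member called higher in swr1Δ, at 0.57 ± 0.03 (1.49-fold, adjusted p = 0.0227), whereas its arp6Δ values changed sign between the pairs of similar arrays. SSZ1, the Hsp70 partner of Zuo1, read 2.23, 1.02, 0.02 and −0.09 in arp6Δ, with the same split, against −0.0035, −0.02 and 0.15 in swr1Δ. SSB1, nearly identical to SSB2, was not analysed here.

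The mitochondrial members other than HSP78 and the members of the endoplasmic reticulum showed no call in either mutant on its own arrays. HSP10 (YOR020C), the lid of the mitochondrial chaperonin, had the largest mean change of the growth-expressed and heat-raised class in arp6Δ and read 0.68, 1.24, 0.80 and 1.56 in arp6Δ, against 0.17, 0.17 and 0.41 in swr1Δ. It was above the swr1Δ values on all arp6Δ arrays, but its mean of 1.07 ± 0.41 missed the threshold (adjusted p = 0.0528). It passed with the displaced values of other genes moved back (adjusted p = 0.0464). The values of HSP10 itself did not change in that move, while calls over all features rose from 315 to 422. HSP60, which forms the barrel closed by Hsp10, did not share the positive values of HSP10: it averaged −0.06 ± 0.78 in arp6Δ and 0.06 ± 0.14 in swr1Δ. MDJ1, a mitochondrial J protein, was the least changed of its class in arp6Δ (−0.08, −0.13, 0.10 and 0.21), against −0.04, −0.35 and −0.32 in swr1Δ, and its displaced values moved back are −0.06 and −0.22. SSC1, the mitochondrial Hsp70, averaged −0.24 ± 0.75 in arp6Δ and 0.09 ± 0.11 in swr1Δ. CPR3, a mitochondrial prolyl isomerase, had the smallest mean change of the constitutive genes in arp6Δ and read −0.28, 0.67, −0.15 and −0.17 in arp6Δ, against 0.12, 0.51 and 0.52 in swr1Δ. KAR2, the Hsp70 of the endoplasmic reticulum, averaged −0.71 ± 0.67 in arp6Δ and 0.04 ± 0.26 in swr1Δ, and LHS1, its exchange factor, −0.06 ± 0.72 in arp6Δ and −0.07 ± 0.08 in swr1Δ.

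The 8 subunit genes of CCT, the ring chaperonin that folds actin and tubulin, stayed near wild type as a group. Their array medians lay between −0.13 and 0.10 in arp6Δ and between −0.19 and −0.09 in swr1Δ, and 0 of the 8 passed in either mutant (limma; at an unadjusted p under 0.05, 0 in arp6Δ and 2 in swr1Δ). Gene means ran from −0.28 (CCT6) to 0.36 (CCT2) in swr1Δ. In arp6Δ they ran from −0.58 (CCT7) to 0.53 (CCT8) as deposited, with CCT2 at 0.09. CCT2 and CCT8 are displaced on replicates 1 and 2: with values moved back (1.79 and 0.29 for CCT2) CCT2 averaged 0.54, and CCT8, on replicates 3 and 4 alone, 0.10. Of the cytosolic J proteins, YDJ1 averaged 0.78 ± 0.35 in arp6Δ and −0.14 ± 0.21 in swr1Δ, SIS1 −0.85 ± 0.36 in arp6Δ and −0.25 ± 0.05 in swr1Δ, and APJ1 −0.30 ± 0.25 in arp6Δ and −0.16 ± 0.09 in swr1Δ. YDJ1 read above 0 and SIS1 below 0 on all 4 arp6Δ arrays, and 0 of the 3 passed. The exchange factors FES1 and SNL1 averaged 0.18 ± 0.53 and −0.75 ± 0.82 in arp6Δ and −0.15 ± 0.17 and −0.08 ± 0.16 in swr1Δ. SNL1 values on replicates 1 and 2 are displaced: as deposited they are −1.79 and −1.03, and moved back 0.13 and −0.65, beside 0.04 and −0.24 on replicates 3 and 4.

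The difference between the mutants was tested in a fit of all 7 arrays, in which the wild-type channel drops out if it was the same RNA. In arp6Δ minus swr1Δ, 7 of 42 members were lower and 0 higher (16.7% of the set; 3.9% of all features were lower and 3.13% higher), all 7 from the stress-inducible class. These were HSP26 at −4.19 ± 0.64 (SE; adjusted p = 0.0215), HSP30 at −3.33 ± 0.38 (adjusted p = 0.0161), HSP104 at −2.03 ± 0.23 (adjusted p = 0.0161), SSE2 at −1.91 ± 0.42 (adjusted p = 0.0412), HSP42 at −1.62 ± 0.37 (adjusted p = 0.0412), SSA4 at −1.44 ± 0.34 (adjusted p = 0.0454) and HSP78 at −1.39 ± 0.30 (adjusted p = 0.0476). Without any 1 of the swr1Δ arrays 0 of the members passed (limma; 10 to 12 at an unadjusted p under 0.05), without arp6Δ replicate 3 there were 3 and without arp6Δ replicate 4 there was 1. Over all features 3 passed without any 1 of the swr1Δ arrays. Without arp6Δ replicate 3 it was 141 of 5718, and without arp6Δ replicate 4 it was 5 of 5718. With all 7 arrays, 15 of 42 members and 1701 of 5879 features had an unadjusted p under 0.05 (limma). As deposited, every arp6Δ value lay below every swr1Δ value for each of the 11 stress-inducible genes. The same held for 1 of 15 growth-expressed and heat-raised genes (SIS1) and 1 of 16 constitutive genes (SSA2). Over all features this held for 16.1%. Among the 11, HSP78 had values on 2 arp6Δ arrays and SSA4 had displaced values. HSP31, in the short displaced run, was separated only by −0.2928 in arp6Δ against −0.2832 in swr1Δ. The opposite order, with arp6Δ the higher, held for 4 members (SSB2, HSP10, YDJ1 and CCT8), 9.52% of the set, against 16.9% of all features.

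HSP82 was not shown to differ between the mutants: its difference was −0.52 (95% interval −1.002 to −0.05, adjusted p = 0.142), and it turned to 0.04 when the arrays were scaled to the same spread. For HSC82 the difference was −0.06 (−0.86 to 0.73, adjusted p = 0.916) and turned to 0.32 under that scaling. For SSE1 it was −0.15 (−0.78 to 0.48, adjusted p = 0.742). The difference of SSA2, −1.33 (−2.47 to −0.19, adjusted p = 0.123), and that of SSB2, 1.24 (0.45 to 2.02, adjusted p = 0.0638), missed the threshold over all features.

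**Figure D4:**
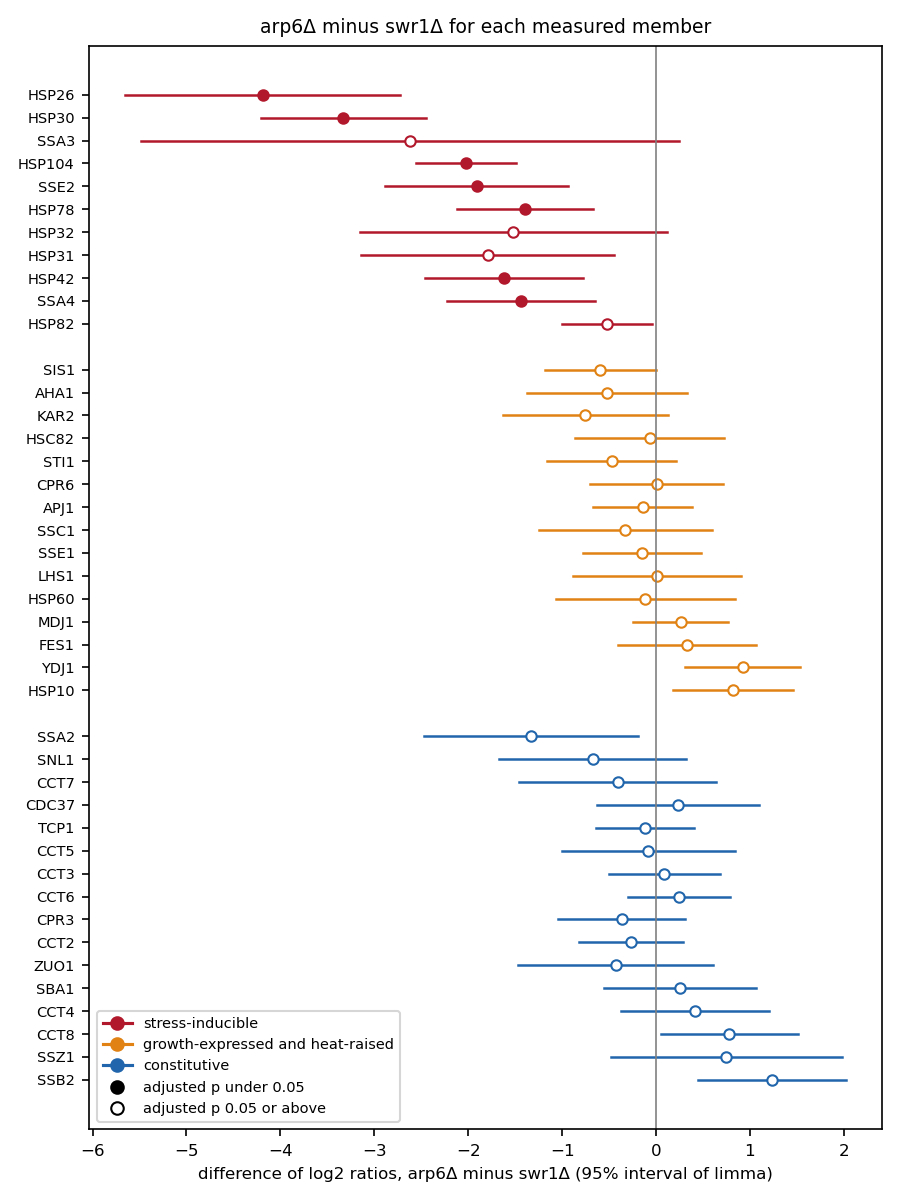
Difference of log2 ratios, arp6Δ minus swr1Δ (horizontal axis), for each of the 42 measured members with its 95% interval from limma; filled points have an adjusted p under 0.05 and colours stand for classes. The 7 filled points, −4.19 for HSP26 to −1.39 for HSP78, are all stress-inducible genes.

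Because the arp6Δ arrays resembled each other in pairs, the calls were also read within and between the pairs. With the pairs as a random block, HSP26 (adjusted p = 0.0298), HSP30 (0.0359) and HSP104 (0.0298) remained lower in arp6Δ, and these 3 also remained in the difference (0.0317, 0.0298 and 0.0263). The other 5 members called in arp6Δ did not pass in that fit. On the means of replicates 1 and 2 against those of replicates 3 and 4, HSP104 stood at −2.21 and −2.60, HSP30 at −3.33 and −3.10, and HSP26 at −3.16 and −5.26. SSA3 stood at −4.48 and −0.57, so this gene was low to very different degrees on the 2 pairs. HSP31 stood at −0.85 and −2.69 as deposited, but it lies in the short run of displaced values, so the −0.85 may not be its own.

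Other folding genes, 51 measured from a list of J proteins, Hsp90 partners, prolyl isomerases, prefoldin, nascent chain complex and related genes had array medians between −0.07 and 0.45 in arp6Δ and between −0.06 and −0.03 in swr1Δ. On the arp6Δ arrays 0 were lower (limma; 15 changed in either direction at an unadjusted p under 0.05) and 3 were higher, 5.88% of the list against 2.09% of all features. The unadjusted limit was reached by 1730 of 5879 features. None of the 3 passed with any 1 array left out (adjusted p = 0.0507 to 0.135) or with the array pairs as a random block (0.084 to 0.125). These were JJJ3, a J protein of diphthamide synthesis, at 1.32 ± 0.13 (SD, adjusted p = 0.0320), PAM18, a J protein of mitochondrial import, at 1.254 ± 0.09 (adjusted p = 0.0320), and EGD1, a subunit of the nascent chain complex at the ribosome, at 1.31 ± 0.52 (adjusted p = 0.0440). EGD1 was also higher in swr1Δ, at 0.53 ± 0.06 (adjusted p = 0.0238). The 7 other heat shock genes of the list stood apart from it, with array medians of −0.56, −1.16, −1.45 and −0.81 in arp6Δ, against −0.13, 0.10 and 0.06 in swr1Δ. Of these, 6 read below 0 on every arp6Δ array and 0 passed (limma; 4 of 7 at an unadjusted p under 0.05). Beside HSP33 and SNO4 they include BTN2, which sorts misfolded proteins (−1.12 ± 0.94 in arp6Δ), the polyubiquitin gene UBI4 (−0.72 ± 0.74) and the coactivator gene MBF1 (−0.46 ± 0.52). HSP12, whose values on replicates 1 and 2 are displaced, read −0.06, −0.22, −2.51 and −1.94 as deposited in arp6Δ, with −3.92 and −5.19 moved back to replicates 1 and 2, against −1.40, 0.01 and −0.30 in swr1Δ.

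In swr1Δ 8 of the 51 were lower and 3 higher, 15.7% and 5.88% of the list, against 10.9% and 11.2% of all features. The counts were 16 lower and 12 higher without replicate 1, 3 and 0 without replicate 2, and 2 and 0 without replicate 3. Over all features they were 1562 and 1575 of 5819, 155 and 124 of 5802, and 176 and 221 of 5802. With all 3 arrays the lower ones of the 51 held 3 of 6 prefoldin and chaperonin helpers. These were YKE2 at −1.03 ± 0.45 (adjusted p = 0.0225) and GIM4 at −0.94 ± 0.17 (adjusted p = 0.0214), both prefoldin subunits, and PLP2, which assists CCT, at −0.53 ± 0.32 (adjusted p = 0.0450). They also held the J proteins DJP1, ERJ5 and JJJ1 (−0.72 to −0.41), MGE1, the exchange factor of mitochondrial Hsp70 (−0.55 ± 0.19), and the Hsp90 partner CPR7 (−0.53 ± 0.26). TAH1, CPR5 and EGD1 were higher (0.45 to 0.53). GIM4 and YKE2 were higher in arp6Δ than in swr1Δ, by 1.496 ± 0.27 (SE, adjusted p = 0.0277) and 1.46 ± 0.34 (adjusted p = 0.0448), with arp6Δ means of 0.55 ± 0.36 and 0.43 ± 0.49 that did not pass. JJJ3, PAM18 and CNS1, a co-chaperone of Hsp90 and Hsp70, were also higher in arp6Δ than in swr1Δ (1.40, 1.10 and 1.37), and the prolyl isomerase CPR2 was lower (−1.253 ± 0.23, adjusted p = 0.0285). Without any 1 of the swr1Δ arrays, or without arp6Δ replicate 4, 0 of the 51 passed in the difference (limma; 8 to 18 at an unadjusted p under 0.05), and without arp6Δ replicate 3 there was 1. Over all features 3 to 5 passed in the former fits and 141 of 5718 in the latter. GIM4 lies in the same short run of displaced values as HSP31. The regulators HSF1, MSN2 and MSN4 passed in neither mutant. HSF1 read −1.62, −0.07, 1.95 and 1.99 in arp6Δ, against 0.22, 0.36 and 0.41 in swr1Δ, but it lies in a displaced stretch, so that the values on arp6Δ replicates 1 and 2 are not taken as its own, and it has none there after the move. In arp6Δ MSN2 averaged −0.18 ± 0.32 and MSN4 −0.56 ± 1.31, with MSN4 at 0.45, 0.65, −1.94 and −1.42, and in swr1Δ they averaged 0.34 ± 0.08 and 0.03 ± 0.16.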

How the data were processed

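Two-colour arrays carried RNA of a deletion strain in Cy5 and of wild type in Cy3. The authors deposited 1 log2 ratio per probe and array, already normalised. Neither labels nor methods describe how background, normalisation and empty values were handled. No intensities were used, so the signal over background of a spot is unknown. The labels and the study's methods differ on temperature and RNA extraction, and the labels were followed. The sign of the ratios was checked on ARP6 and SWR1, each low in its own mutant. Although deleted, ARP6 read only 2.13-fold lower in arp6Δ and SWR1 only 1.76-fold lower in swr1Δ. Why these spots were not lower was not tested.

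Of 6912 probes, 5945 held values. Of all 6912 probes, with or without values, 5446 were named through the platform's probe annotation, with locus tags and symbols from the RefSeq gene table. Probes of a gene were averaged, and each member had 1 probe. Features with values on at least 2 arrays of each mutant were tested (5879). Each mutant was fitted on its own arrays against 0, and arp6Δ minus swr1Δ on all 7, with limma 3.58.1 (R 4.3.3), two-sided, with Benjamini-Hochberg adjustment over all features at 0.05. Wild type has no spread of its own in this design. The scripts were tested on simulated data. Displaced values were found by shifting rows in stretches of at least 20 genes until replicates 1 and 2 matched replicates 3 and 4. The move was thus chosen to make the arp6Δ arrays alike, so a call made after it is no independent evidence.

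The members, classes and gene lists were chosen with earlier results of these data known. Values per array are given for members that passed a test, for paralogue pairs and for the most and least changed member of each class, and for some further members after their values were seen. Other folding genes are named where they passed, and JJJ3, CNS1 and the like in the difference, the other heat shock genes and the regulators were named after their values were seen. Fold changes come from mean log2 ratios.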

Additional observations from a re-analysis of the deposited data

Results flagged for a closer look

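Among 41 members with values on all 4 arp6Δ arrays, 1 array stood far from the other 3 in 4 genes, where chance alone marks about 1 gene in 20. The gap between that array and its nearest neighbour made up 0.939 of the whole range for HSP42 (replicate 2, nearest to 0), 0.833 for SSB2 (replicate 1, the highest), 0.876 for APJ1 (replicate 3, the highest) and 0.864 for CPR3 (replicate 2, the highest). HSP42 stayed below and SSB2 above the swr1Δ values on the array concerned as well.

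A difference between the mutants passed the test in 7 members, all lower in arp6Δ than in swr1Δ. The difference in log2 ratio was −4.19 for HSP26, −3.33 for HSP30, −2.03 for HSP104, −1.91 for SSE2, −1.62 for HSP42, −1.44 for SSA4 and −1.39 for HSP78. The value of HSP78 rests on 2 arp6Δ arrays.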

How the results depend on the processing

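The 8 members called in arp6Δ kept their direction under every alternative run. Their count became 0 with a trended and robust prior (limma; 17 at an unadjusted p under 0.05) and with the methods' t-test after Benjamini-Hochberg (12 unadjusted), 3 with the array pairs as a random block, 15 in 1 fit over all 7 arrays and 21 on replicates 3 and 4 alone, and was 0 to 3 with 1 array left out. Over all features arp6Δ had 315 calls, 1577 in the fit over 7 arrays, 817 after scaling and 0 with the trended and robust prior. It had 2547 on replicates 3 and 4 alone and 0 to 70 with 1 array left out. The 6 calls in swr1Δ became 0 with the methods' t-test after Benjamini-Hochberg (11 unadjusted) and 0 in the fit over 7 arrays (3 unadjusted), and were 0 to 15 with 1 array left out. Over all features swr1Δ had 1303 calls, 0 with that t-test, 0 in that fit and 279 to 3137 with 1 array left out. The 7 calls in arp6Δ minus swr1Δ became 3 with the array pairs as a random block, 1 with the trended and robust prior, and 0 to 10 with 1 array left out. Over all features the difference had 413 calls, which became 148, 282 and 3 to 773 in these settings. The random block and the omission of displaced values were chosen after seeing the data.

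With the replicate number as a block, 0 members were called in the difference (13 unadjusted), and 2 of all features. Deviations of arrays with the same number correlated at 0.02, 0.05 and −0.05, and the labels tie no arrays by number, so the numbers were not taken as pairs.

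Scaling the arrays to equal spread moved the stress-inducible class median to −1.53 in arp6Δ and that of the growth-expressed and heat-raised genes to −0.18 in swr1Δ. Signs turned for small values: with scaling, SSA4 in swr1Δ was −0.018, and HSC82 and HSP82 in the difference were 0.32 and 0.037. With 1 array left out, the swr1Δ mean ran from −0.27 to 0.31 for HSP26, −0.088 to 0.17 for SSA4 and −0.14 to 0.023 for SSE1 (0.0049 without replicate 1), and the difference from −0.28 to 0.21 for HSC82 and −0.28 to 0.014 for SSE1, with the highest value of both without arp6Δ replicate 2. With so few arrays the precision is limited throughout.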
